A study of Homo sapiens with 2 samples.

Results

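The TNF receptor-associated factors TRAF1 to TRAF6, the inhibitor of apoptosis (IAP) genes BIRC2, BIRC3 and XIAP, and CFLAR were taken as 1 group of 10 genes out of 27685 gene IDs in the deposited tables. They were found by their NCBI gene IDs, and each had 1 row per library. The group was chosen from the measured values, since TRAF1 and BIRC3 stood out in this same contrast, so their differences are given as a description with no test. The data were 1 library of untreated H1299 cells (control) and 1 library of H1299 cells given 5 mM metformin, a biguanide known to inhibit complex I of the respiratory chain. The sources used here do not give the time of exposure. H1299 is an established human non-small cell lung cancer line, grown in both groups in the same medium with serum. One line was used, and nothing in the labels speaks of further cultures.

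TRAF proteins are cytoplasmic adaptors that bind the tails of activated TNF receptors, or, for TRAF6, the complexes of interleukin-1 and Toll-like receptors. TRAF2 carries the ubiquitin ligases BIRC2 (cIAP1) and BIRC3 (cIAP2) to the receptor, and the ubiquitin chains made there lead to the kinases that activate NF-kB. TRAF3, together with TRAF2 and the cIAPs, keeps the kinase NIK low and thereby restrains the non-canonical NF-kB route, while XIAP blocks caspases directly and CFLAR (c-FLIP) holds back caspase-8. TRAF1, which lacks the RING finger of the other TRAFs, and BIRC3 are both known as genes that NF-kB itself induces.

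The promoters of TRAF1 and BIRC3, the members that stood out, are shown first, with BIRC2, which adjoins BIRC3, and TRAF3, which shares an NF-kB match with it. The sequences are from RefSeq (GRCh38.p14) and each was found by exact match at 1 place of the GRCh37 genome, the same build as hg19 of the deposited tables. They are written 5′ to 3′ on the gene's own strand, from 250 bases before the first RefSeq start up to that start, or up to the gene as deposited where it begins earlier. Capitals mark matches to the NF-kB consensus (3 G, a purine, 2 free bases, 2 pyrimidines and 2 C, on either strand). BIRC3 lies on the plus strand and its stretch is chr11:102187965-102188180. That of BIRC2, the next gene on the same strand, is chr11:102217695-102217912, that of TRAF1, on the minus strand, is chr9:123691452-123691699, and that of TRAF3, on the plus strand, is chr14:103243536-103243785.
BIRC3: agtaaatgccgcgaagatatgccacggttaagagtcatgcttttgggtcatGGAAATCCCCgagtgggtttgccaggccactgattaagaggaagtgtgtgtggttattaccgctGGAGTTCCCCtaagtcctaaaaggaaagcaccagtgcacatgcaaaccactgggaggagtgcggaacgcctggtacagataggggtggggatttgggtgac
BIRC2: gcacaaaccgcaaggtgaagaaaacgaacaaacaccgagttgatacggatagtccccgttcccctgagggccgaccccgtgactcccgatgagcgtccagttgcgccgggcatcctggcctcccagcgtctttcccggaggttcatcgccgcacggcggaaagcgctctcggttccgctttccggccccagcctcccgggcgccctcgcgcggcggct
TRAF1: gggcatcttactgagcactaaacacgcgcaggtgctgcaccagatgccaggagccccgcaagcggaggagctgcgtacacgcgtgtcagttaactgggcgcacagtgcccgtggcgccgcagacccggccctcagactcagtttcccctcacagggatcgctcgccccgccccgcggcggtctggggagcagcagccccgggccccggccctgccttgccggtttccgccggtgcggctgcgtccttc
TRAF3: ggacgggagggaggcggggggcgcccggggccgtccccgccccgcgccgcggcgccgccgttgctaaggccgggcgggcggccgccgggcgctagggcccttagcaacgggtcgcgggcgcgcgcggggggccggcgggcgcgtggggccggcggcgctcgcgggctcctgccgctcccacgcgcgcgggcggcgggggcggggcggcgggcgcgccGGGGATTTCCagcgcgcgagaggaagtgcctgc

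BIRC3 held 2 matches, at chr11:102188016-102188025 and chr11:102188080-102188089, positions -199 to -190 and -135 to -126 from its start. TRAF3 and CFLAR held 1 each, at chr14:103243753-103243762 and chr2:201983342-201983351, the latter inside the CFLAR gene as deposited and before the first CFLAR start that RefSeq lists. The matches are set side by side on the strand that carries the consensus, to show that the distal BIRC3 match and the TRAF3 match have the same letters.
BIRC3, distal: GGGGATTTCC
BIRC3, proximal: GGGGAACTCC
TRAF3: GGGGATTTCC
CFLAR: GGGGAATTCC

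No match stood in the 3 windows of TRAF1 or the 2 of BIRC2, nor in those of TRAF2, TRAF4, TRAF5, TRAF6 and XIAP, which says only that these letters are not in these windows. In all, 3 of the 20 member windows held the consensus, against 9.96% of 35116 windows of all genes. A search on both strands for the AP-1 motif TGANTCA found 1 match, before another of the CFLAR starts, against 6.57% of all windows. The GC box GGGCGG was present in 11 of the 20 windows, against 42.6%, and before at least 1 start of 9 of the 10 members, all but BIRC3, against 46.2% of genes. The shares per gene are not alike, since the 10 members have 20 windows and the 27305 genes in all have 35116. TATAAA was found in none of the 20, against 10.7% of all windows. The GC content of the first window ran from 44.8% in XIAP and 52.4% in BIRC3 to 86.4% in TRAF3, and it was 70.0% in TRAF1, beside a median of 58.0% over all windows. A match in the letters is not evidence of binding, and binding was not measured here.

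**Figure D1:**
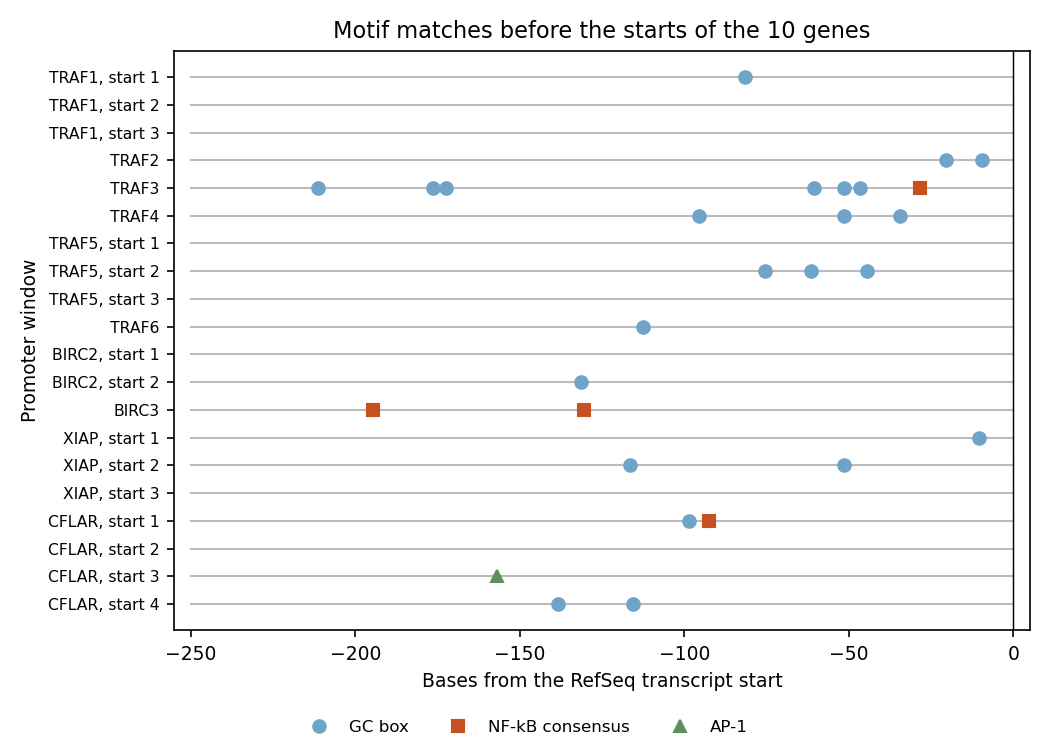
Matches to the NF-kB consensus (squares), the AP-1 motif (triangle) and the GC box (circles) in the 250 bases before each RefSeq start of the 10 genes, with the x axis in bases from the start and 1 line per start. BIRC3 has 2 NF-kB matches and no GC box, and TRAF1 has no NF-kB match at any of its 3 starts.

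Values are given in TPM, a transcript abundance per length and relative to all transcripts of a library, so levels of different genes can be compared. With 1 library per group there is no replicate check and no p-value. The 95% intervals cover the counting of read pairs only (exact, Clopper-Pearson for folds and Poisson for levels), not the variation between cultures. The control library held an estimated 28.7 M (mega) read pairs and the metformin library 31.7 M. In RNA from bulk cells, fewer cells expressing a gene and less RNA per cell cannot be told apart.

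TRAF1 had 17.0 TPM in control (95% counting interval 15.9 to 18.2) and 84.2 TPM in metformin (81.9 to 86.6). It stood 4.95-fold higher in metformin (4.61 to 5.33), a difference of 2.24 in log2(TPM + 1), and 9 of the 14078 measured genes (1 TPM or more in at least 1 library) had a larger difference. In hg19 coordinates TRAF1 (gene ID 7185) spans 123664671 to 123691451 of chromosome 9. BIRC3 had 47.1 TPM in control (45.7 to 48.6) and 99.1 in metformin (97.1 to 101.15), 2.10-fold higher (2.03 to 2.18). Its difference was 1.06 in log2(TPM + 1), with 179 genes (1.27%) above it. BIRC3 (gene ID 330) spans 102188181 to 102210135 of chromosome 11. These were the members past 2-fold on the log2(TPM + 1) scale, 2 of 10, all of them higher in metformin, and none was lower. Over all measured genes 1.51% were higher and 1.24% lower by that rule, and since TRAF1 and BIRC3 were picked for this contrast, nothing is read from the members' count.

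**Figure D2:**
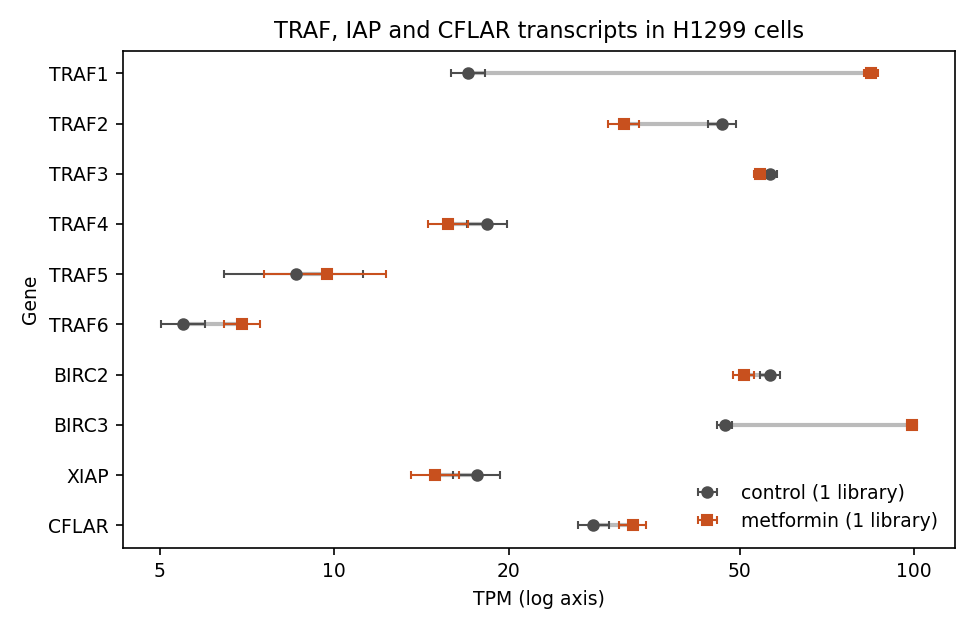
TPM of each gene (log axis) in the control library (grey circles) and the metformin library (orange squares), with 95% counting intervals as bars. TRAF1 moves from 17.0 to 84.2 TPM and BIRC3 from 47.1 to 99.1, while the other 8 genes lie within 1.5-fold of their control values.

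Among the other TRAF adaptors, TRAF2, the adaptor that recruits the cIAPs, had 46.6 TPM in control (44.1 to 49.2) and 31.6 in metformin (29.6 to 33.6). It stood at 0.677 of control (0.623 to 0.737), the lowest ratio of the 10 genes, and 8.27% of measured genes had a smaller difference. TRAF1 and TRAF2, which bind each other in heterotrimers, thus lay on opposite sides of their control values. TRAF3 had 56.5 TPM in control and 54.3 in metformin, and its ratio was 0.961 (0.926 to 0.998). Its log2 difference of -0.06 turned positive under both scaling alternatives, to 0.03 after centring, so no direction is given for it. TRAF4, a family member linked to cell polarity and migration more than to TNF receptors, had 18.4 TPM in control and 15.7 in metformin, for a ratio of 0.856 (0.766 to 0.957).

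TRAF5, the closest relative of TRAF2 in function, had 8.58 TPM in control and 9.72 in metformin, and its ratio was 1.13. Its interval ran from 0.783 to 1.65, on both sides of 1. It rests on 54 and 70 read pairs by coverage, and the larger estimate from FPKM would give a narrower one. TRAF6, which serves interleukin-1 and Toll-like receptors, had the lowest TPM of the members in both libraries, with 5.49 TPM in control and 6.93 in metformin and a ratio of 1.26 (1.13 to 1.42). TRAF3, TRAF4, TRAF5 and TRAF6 thus stood within 1.5-fold of their control values.

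Among the IAP genes, BIRC2, which encodes cIAP1 and lies 7.8 kb beyond BIRC3 on the same strand, had 56.4 TPM in control (54.2 to 58.8) and 50.8 in metformin (48.8 to 52.9). Its ratio was 0.901 (0.850 to 0.955), but its log2 difference of -0.15 became 0.06 once the trend with GC content and length was removed. XIAP, the direct caspase inhibitor, had 17.6 TPM in control and 14.9 in metformin, for a ratio of 0.849 (0.741 to 0.971). CFLAR, the caspase-8 regulator, had 28.0 TPM in control and 32.7 in metformin, for a ratio of 1.17 (1.08 to 1.27). The antisense gene CFLAR-AS1, which overlaps it, was listed at 0 in both libraries.

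**Figure D3:**
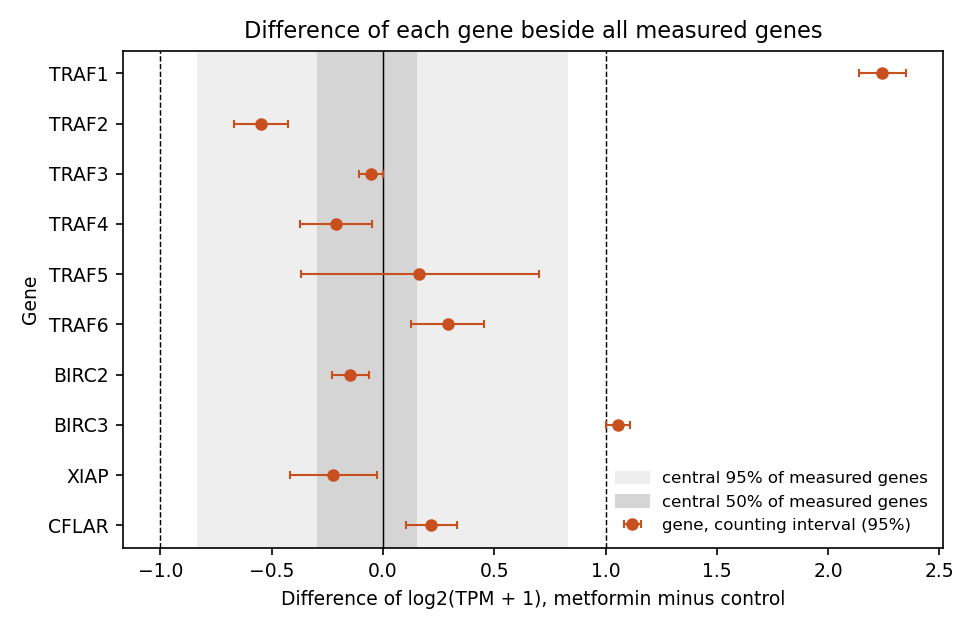
Difference of log2(TPM + 1), metformin minus control, for each gene (points), over bands that hold the central 50% and 95% of the 14078 measured genes. Bars are the 95% counting intervals of the plain TPM ratio in log2, moved so that they centre on the points. Dashed lines mark 2-fold. TRAF1 and BIRC3 lie outside the wider band, and the other 8 genes lie inside it.

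Over the 10 members, 5 lay above 0 and 5 below, with a median difference of 0.05, beside a median of -0.08 and 40.3% above 0 over all measured genes. After centring 6 lay above 0 and the median was 0.14, and it was 0.13 with trimmed mean scaling and without the GC and length trend. On the same scales, 7170 of the 14078 measured genes lay above 0 after centring, with a median of 0.01. Their median was -0.01 with trimmed mean scaling and -0.08 without the GC and length trend. All 10 members had 1 TPM or more in control, so none was measured only through the metformin library. TRAF1 and BIRC3, picked for this contrast, enter these counts and medians. Without them 3 of 8 members (37.5%) lay above 0, with a median of -0.10, near the 40.3% and -0.08 of all measured genes. The differences of these 8 ran from -0.55 in TRAF2 to 0.29 in TRAF6.

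The order of the levels within a library differed at the top. In control it was TRAF3, BIRC2, BIRC3, TRAF2, CFLAR, TRAF4, XIAP, TRAF1, TRAF5 and TRAF6, from 56.5 to 5.49 TPM. Neighbours whose counting intervals overlapped were TRAF3 and BIRC2, BIRC3 and TRAF2, TRAF4 and XIAP, and XIAP and TRAF1. In metformin BIRC3 came first and TRAF1 second, apart from each other and from TRAF3, which held rank 3 at 54.3 TPM. There the overlapping neighbours were TRAF3 and BIRC2, CFLAR and TRAF2, and TRAF4 and XIAP. By TPM, TRAF1 moved from rank 8 to rank 2, and TRAF2 from rank 4 to rank 6. The lower part of the order, and with it the size of these rank moves, turned with the deposited column. By coverage TRAF5 was lowest, at 2.77 in control and 3.55 in metformin (mean reads per base), with XIAP next at 10.4 and 10.1 and TRAF6 above both at 13.3 and 19.1. CFLAR came next, at 14.7 in control, below TRAF1 (40.6) and TRAF4 (45.2). In metformin CFLAR lay at 19.7, below TRAF4 (43.7) and TRAF2 (87.8).

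Shares within a library do not depend on how the libraries were scaled to each other. TRAF1 made up 11.2% of the summed TPM of TRAF1 to TRAF6 in control and 41.6% in metformin. The sum was 152 TPM in control and 202 in metformin, and without TRAF1 it was 135 and 118. TRAF2 went from 30.6% to 15.6% of the sum and TRAF3 from 37.0% to 26.8%. In the pool of BIRC2, BIRC3 and XIAP, which summed to 121 and 165 TPM, the share of BIRC3 was 38.9% in control and 60.1% in metformin. Without BIRC3 that sum was 74.0 and 65.8 TPM.

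BIRC3 stood at 0.835 of the BIRC2 level in control (95% counting interval 0.793 to 0.879) and at 1.95 times that level in metformin (1.86 to 2.04), so the order of the cIAP transcripts turned. TRAF1 stood at 0.365 of the TRAF2 level in control (0.334 to 0.398) and at 2.67 times it in metformin (2.49 to 2.86). CFLAR stood at 1.59 times the XIAP level in control and 2.19 times in metformin, with intervals of 1.42 to 1.78 and 1.96 to 2.45. These intervals do not cover the choice of deposited column. By coverage CFLAR had 14.7 and XIAP 10.4 in control, and 19.7 and 10.1 in metformin, which are smaller ratios than by TPM.

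**Figure D4:**
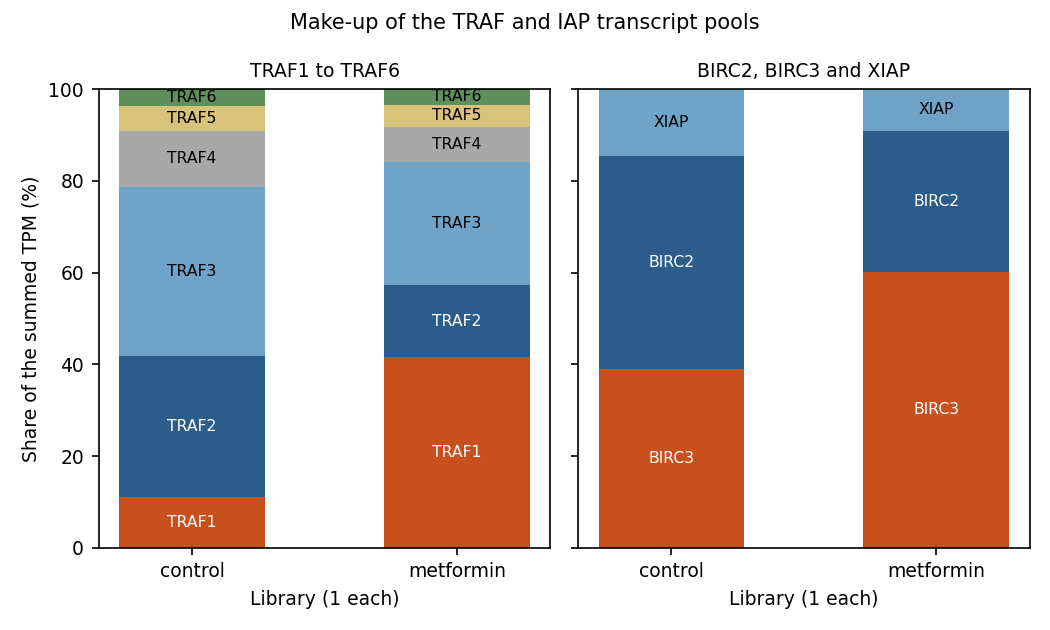
Share of each gene in the summed TPM of TRAF1 to TRAF6 (left) and of BIRC2, BIRC3 and XIAP (right), in percent, as 1 stacked bar per library. The share of TRAF1 is 11.2% in control and 41.6% in metformin, and that of BIRC3 is 38.9% and 60.1%.

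The genes next to TRAF1 and BIRC3 on their chromosomes, taken as the nearest measured gene on each side, did not share their differences in size. PHF19, 7.5 kb from TRAF1, stood at 0.944 of control, and C5, 23.2 kb away on the other side, was listed at 3.50 and 4.29 TPM. BIRC3 lies between YAP1, at 84.0 kb and a ratio of 0.800, and BIRC2. TMEM123, beyond BIRC2, stood at 0.746. CASP8, which encodes the caspase that CFLAR restrains, lies 60.8 kb from CFLAR and had 19.8 TPM in control and 17.2 in metformin, at 0.869 of control (0.676 to 1.12). TRAF2 overlaps the microRNA gene MIR4479 on the same strand, listed at 3.01 and 0.258 TPM, and the sum of both left the side on which TRAF2 lay as it was.

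The transcripts of the members also differed in base composition, with which the difference moved across genes (Spearman correlation 0.35 over 13185 genes, which share the 2 libraries and are not replicates). Genes under 40% GC had a median difference of -0.26 (2237 genes), and genes at 55% or more one of 0.05 (3975 genes). BIRC3 had the lowest GC content of the 10 transcripts, 35.8%, and BIRC2 followed at 37.4%. TRAF1 had 55.4% and TRAF2, on the other side of its control value, had the highest at 61.3%. With the trend removed, the difference was 1.29 for BIRC3, 2.15 for TRAF1 and -0.69 for TRAF2.

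Genes of similar level were sought among those with a symbol, 1 row per library and a TPM above 0 in both. Symbols that hold a hyphen, or begin with LOC, LINC or letters used for small RNA genes, were left out. Within that set, the genes nearest to TRAF1 in the log2 TPM of the 2 libraries were the histone genes H2BC5 and H2BC4 and the uridine phosphorylase gene UPP1. They stood at distances of 0.638, 0.705 and 0.731 and at ratios of 4.07, 3.42 and 2.44. Nearest to BIRC3 was GRB2, an adaptor of receptor tyrosine kinases, at 45.3 and 102 TPM (distance 0.067), followed by CLIP3 and U2AF1L4 at 0.241 and 0.257. With 2 libraries, likeness means only a similar level in each.

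The pathway around the members was described with lists drawn up by role, but with earlier results of these data known, and no list was tested. Over all measured genes 40.3% lay above 0, with a median of -0.08. After centring it was 7170 of 14078, with a median of 0.01. Of 23 TNF receptors known to bind TRAFs or death adaptors, 13 were measured, 11 lay above 0 and 2 below, with a median difference of 0.35. Of the 11 at 1 TPM or more in control, 9 lay above 0. TNFRSF9 (4-1BB), a receptor that signals through TRAF1 and TRAF2, had 0.247 TPM in control and 3.79 in metformin. That is 15.4-fold higher (9.56 to 26.3) on an estimated 18 and 306 read pairs, and without the metformin library it would not have counted as measured. TNFRSF12A, the TWEAK receptor, was at the other end, at 301 and 220 TPM and a ratio of 0.732. Of the route from interleukin-1 and Toll-like receptors to TRAF6, 8 of 13 measured genes lay above 0 with a median of 0.06 (0.15 after centring), between the kinase gene IRAK2 at 1.72-fold (1.57 to 1.88) and TLR6 at 0.502 (0.423 to 0.596).

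Inside the cell, the TNF receptor complexes had 4 of 11 measured genes (36.4%) above 0 and a median of -0.07, which became 0.02 after centring. These values were near those of all measured genes, which were 40.3%, -0.08 and, after centring, 0.01. TRADD, the first adaptor of TNF receptor 1, was at 1.37-fold (1.16 to 1.61), and UBE2N, the ubiquitin-conjugating enzyme that works with TRAF2 and TRAF6, at 0.674 (0.648 to 0.702). Of the 16 kinases and their subunits from TRAFs to NF-kB and JNK, all measured, 5 lay above 0, and the differences ran from -0.48 to 0.28 with a median of -0.15. After centring 7 lay above 0 and the median was -0.06. MAPK8 (JNK1) was at the lower end, at 0.695 of control (0.632 to 0.764). MAP3K14, which encodes NIK, the kinase that TRAF3 holds low, had 76.8 TPM in control and 55.3 in metformin, and it overlaps MAP3K14-AS1 on the other strand. The sources used here do not say whether reads were assigned by strand. MAP3K14 is given for its role, chosen once its values were known.

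Genes that restrain TRAF signalling had 9 of 12 measured members above 0 and a median of 0.27. TNFAIP3 (A20), a ubiquitin-editing enzyme and known NF-kB target, was listed at 6.28 and 15.7 TPM, 2.504-fold higher (2.22 to 2.83), though it overlaps WAKMAR2 on the other strand. TANK, a TRAF-binding scaffold, was at the lower end, with 51.8 and 47.8 TPM. Among the NF-kB subunits and their inhibitors 8 of 10 lay above 0, with a median of 0.35. Without the GC and length trend 7 did, with a median of 0.22. NFKBIA, the main inhibitor of NF-kB and itself a known target of it, was listed at 34.0 and 90.2 TPM, 2.65-fold higher (2.42 to 2.90), and NFKBIB, a second inhibitor that overlaps SIRT2 on the other strand, stood at 0.814. On the log2(TPM + 1) scale, 1 gene of each of the lists of receptors, restraining genes and NF-kB genes was higher by 2-fold and none was lower, beside 1.51% and 1.24% of all measured genes. On plain TPM a further receptor, NGFR, chosen once its values were known, was past 2-fold at 0.203 and 1.29 TPM, on an estimated 8 and 61 read pairs, and it overlaps NGFR-AS1 on the other strand and MIR6165 on its own.

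Of the IAP genes outside the members 3 were measured, and all lay below 0. So did 8407 of the 14078 measured genes, and nothing is read from this count. BIRC5 (survivin), a subunit of the chromosomal passenger complex in mitosis, had 155 TPM in control and 76.0 in metformin, for a ratio of 0.490 (0.467 to 0.514). BIRC6, a large IAP, stood at 0.901 (0.869 to 0.935), a difference of -0.14 beside the median of -0.08 over all measured genes. NAIP stood at 0.816, with an interval that includes 1 (0.650 to 1.02), while BIRC7 and BIRC8 were under 1 TPM in both libraries. Of the IAP antagonists and caspases 4 of 9 measured genes lay above 0, with a median of -0.07 that became 0.02 after centring. Of the 8 at 1 TPM or more in control, 3 lay above 0, with a median of -0.17. Of the other TRAF-related genes, TNIK, a kinase that binds TRAF2, stood at 1.24-fold, and TRAIP, a ubiquitin ligase of genome maintenance, at 0.749.

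**Figure D5:**
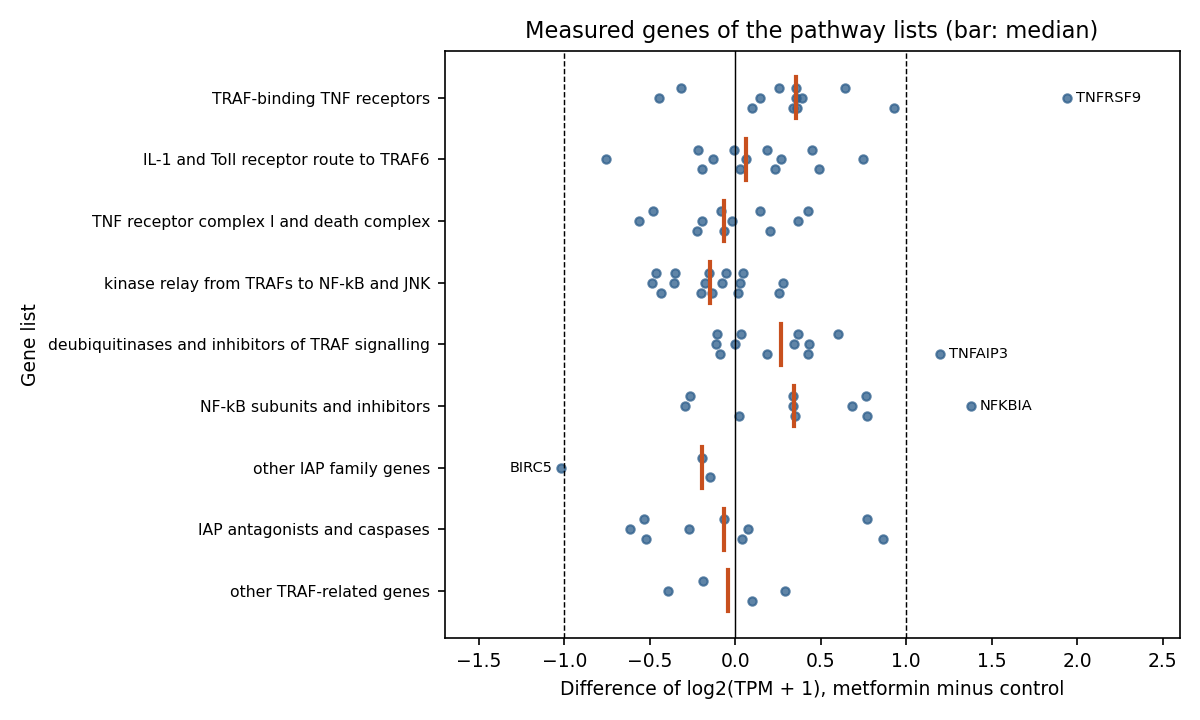
Difference of log2(TPM + 1), metformin minus control, for each measured gene (points) of 9 lists around the members, with the median as a bar and dashed lines at 2-fold. TNFRSF9, TNFAIP3 and NFKBIA lie above 2-fold and BIRC5 below it, and the kinase relay lies within 2-fold.

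The cell type was checked against markers. The libraries held VIM at 4378 and 4962 TPM, KRT8 at 269 and 521 and KRT18 at 553 and 954, with KRT8 and KRT18 overlapping on opposite strands, and EPCAM and CDH1 at 0.253 TPM or less. TRAF1 and BIRC3 are also abundant in lymphocytes. All 3 T lymphocyte markers were listed at 0 in both libraries, the 4 B lymphocyte markers summed to 1.82 TPM in control and 1.15 in metformin with MS4A1 and CD79B at 0, and PTPRC, the marker of all leukocytes, stood at 0 and 0.0266. The 3 endothelial markers were listed at 0, and the myeloid and fibroblast markers summed to 2.17 TPM or less in each library.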

How the data were processed

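Per the labels' protocols, the RNA libraries came from a TruSeq Stranded mRNA kit and an Illumina NovaSeq instrument. Mapping to hg19 used Bowtie2 per the labels' protocols, while the submitters' processing notes name Trimmomatic 0.38, HISAT2, hg19 and GRCh37. The sources used here name no program for the abundances. The authors deposited TPM, FPKM and coverage per gene, per the file headers. The headers do not define coverage, which was taken here as mean read depth over the exons.

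Symbols came from RefSeq (27559 of 27685 gene IDs), and rows of an ID listed more than once were summed. Differences are log2(TPM + 1), metformin minus control, which understates those of low genes; folds are plain TPM ratios. Read pairs were estimated with 202 bases per pair, the value that recurred most often as the base total of short genes, and the GENCODE 44 transcript length, taking the lower of the estimates from FPKM and from coverage. PCR duplicates can make the intervals too narrow. The differences, fold intervals and removal of the GC and length trend were checked on simulated data. The estimate of read pairs was not part of that check. Alternatives changed the pseudocount, filter, unit, scaling, GC and length trend, overlaps and threshold. Members and lists were chosen with earlier results of these data known. Named were all members, both ends of each list, cell markers, the 3 nearest genes and genes overlapping a member, and besides them chromosomal neighbours and genes said to be chosen once their values were known. Some of the genes so named are not reported here. Python 3.11.15, numpy 2.4.6, pandas 2.3.3, scipy 1.17.1 and matplotlib 3.10.9 were used.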

Additional observations from a re-analysis of the deposited data

How the results depend on the processing

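TRAF1 lay between 2.02 and 2.33 in log2 difference under the 8 alternatives that recompute it, with the lowest value at a pseudocount of 5. BIRC3 was 0.998 at that pseudocount, just under 2-fold, which left 1 member past 2-fold in place of 2; it was 1.145 after centring, 1.133 with trimmed mean scaling and 1.293 without the GC and length trend. All other settings kept 2 members past the threshold, including 1.5-fold. TRAF3 changed sign under both scaling alternatives and BIRC2 without the GC and length trend; the other 8 members kept theirs. The background counts, 213 higher and 175 lower, became 389 and 353 with a pseudocount of 0.1, 58 and 45 with 5, 121 and 115 with a minimum of 5 TPM, 113 and 67 with FPKM, 132 and 88 without the GC and length trend, and 760 and 990 at 1.5-fold. Centring on the median of the genes that reached 10 TPM in each library (-0.09) gave 270 and 114, and trimmed mean scaling 254 and 136, so the share of higher genes went from 54.9% to 70.3% and 65.1%. Both scalings raise the differences, so the larger share of higher genes follows by arithmetic. Why the median lay below 0 was not tested. No paired analysis was possible because each group holds 1 library. The lack of replicates limits every value.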

Other observations

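The deposited coverage and FPKM columns give different views of 3 members. Per unit of FPKM, coverage stood at 13.1% of its highest value in the library for TRAF5, 24.1% for XIAP and 21.3% for CFLAR in control, and at 13.1%, 24.4% and 21.7% in metformin. The other 7 members stood at 89.4% or more in each library. The relation was close in the 2 libraries, and with coverage in place of TPM each of the 10 members kept its side of 0. The sources used here do not say how the columns were made.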
